A study of Mus musculus with 6 samples.

Results

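The genes of S phase and mitosis were followed in stromal cells that carry or lack a reporter of p16, the inhibitor of cyclin-dependent kinases 4 and 6 encoded by Cdkn2a. The 49 genes were taken by symbol from the 55536 gene identifiers of the count files, from a fixed list of symbols drawn up with earlier results of these data known: 24 of G2 and mitosis (G2/M), 15 of S phase and its onset, and 10 of the G1 and Rb pathway. Each symbol matched 1 identifier. Cells came from quadriceps muscle of mice with a tdTomato reporter of p16 on the C57Bl/6 strain and were sorted as CD45-, CD31- and CD29+. Both groups shared this background and gate, and they differed by the reporter: 3 libraries were of tdTomato-positive cells (p16+) and 3 of tdTomato-negative cells (p16-). According to the labels' protocols, part of the muscle was cut out on both sides at 10 weeks of age, the gap was filled with 30 mg of polycaprolactone particles, decellularized matrix or 50 uL of saline, and tissue was taken after 1 or 6 weeks. The same protocols list carprofen at 5 mg/kg for both groups. Filler and harvest time of these 6 libraries, the sex of the animals and any pooling of animals are not given in the sources used here. Nothing in the labels ties the replicates to different animals. The p-values therefore refer to the spread among these libraries, which may be technical.

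A cell that enters the cycle first makes D-type cyclins, which activate CDK4 and CDK6. These kinases phosphorylate the Rb protein, which then releases E2F factors that switch on the genes of DNA synthesis. The genes of mitosis follow later. Many of their promoters hold CCAAT boxes, which NF-Y binds, and an element called CHR, which the MuvB-based complexes bind. p16 binds CDK4 and CDK6 and blocks the first step, and senescent cells are usually described as having left the cycle for good.

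Totals were 35253406 to 37861713 counts per library in p16+ and 36507067 to 39103909 in p16-, so that 3 counts correspond to 0.0737 to 0.0876 CPM (counts scaled to the TMM-adjusted size of the library). Cdkn2a had 6.91, 8.82 and 7.74 CPM in p16+ and 2.41, 1.77 and 2.20 CPM in p16- replicates 1 to 3, in the order of the labels. The 9 fibroblast genes checked, among them Col1a1, Col3a1, Pdgfra and Dcn, summed to 90223 to 107869 CPM in p16- and 152502 to 159991 CPM in p16+, which goes with the labelled stromal identity.

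Of the 49 genes, 8 rose in p16+ cells, 0 fell and 41 did not pass the test (edgeR's quasi-likelihood test, adjusted p under 0.05 over all 15903 genes tested). The 8 were Cdk1 and Top2a of G2/M, Mcm2, Rrm1 and Rrm2 of S phase, and Ccnd2, Cdk4 and Cdk6 of the G1 and Rb pathway. Over all genes tested 16.7% were called, 8.69% higher and 8.04% lower, so the 16.3% called among the 49 lay near the share over all genes, while all 8 were in 1 direction. All 49 passed the filter on low counts. Fitted log2 fold changes were above 0 in 43 of the 49 and in 7783 of the 15903 genes, with medians of 0.39 and -0.01. Values of p16+ and p16- did not overlap in 15 of the 49, each higher in p16+, where 33.1% of all genes did not overlap, 16.6% higher and 16.5% lower. For such a gene the exact two-sided permutation test on 3 against 3 libraries gives 0.1, the smallest p it allows. In bulk RNA, a larger share of cycling cells and more of these transcripts per cell cannot be told apart.

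**Figure D1:**
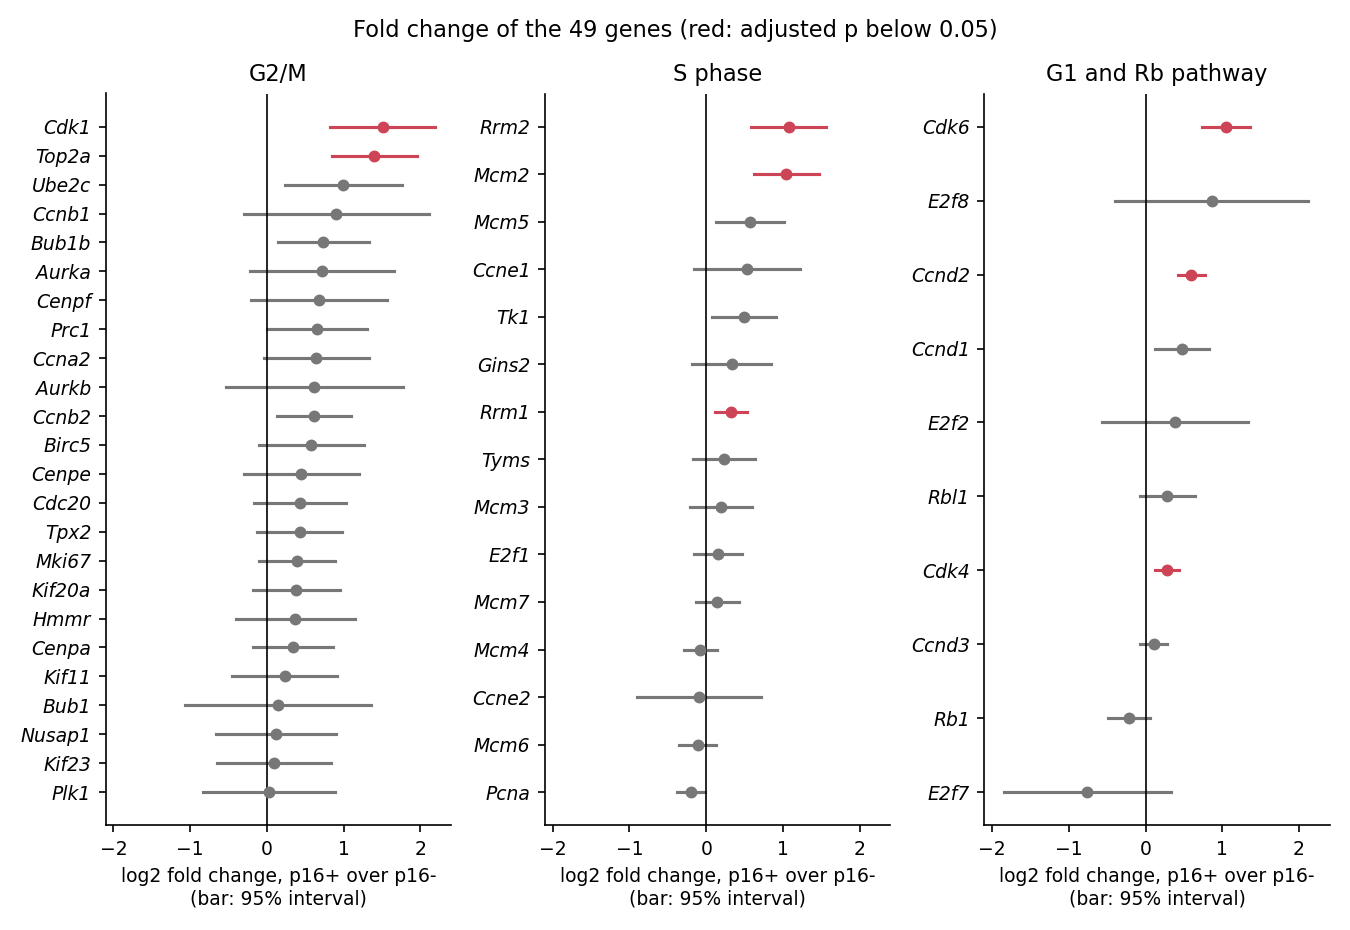
Log2 fold change of p16+ over p16- (horizontal axis) for the 49 genes in 3 classes; points are the edgeR estimates, bars their 95% intervals, and red marks an adjusted p below 0.05. The 24 G2/M points all lie to the right of 0, from 0.02 for Plk1 to 1.51 for Cdk1, but in most the bar crosses 0; under scaling by library size alone 23 of 24 lie there.

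Among the G2/M genes 2 rose, 0 fell and 22 did not pass, a called share of 8.33% against 16.7% of all genes in either direction and 8.69% higher. All 24 had a fitted log2 fold change above 0 (23 of 24 under scaling by library size alone and by limma-voom), with a median of 0.51. These genes were expressed at a low level in both groups. Their counts lay between 14 and 404 per library. In 23 of the 24 the RPKM (CPM per kilobase of all annotated exons of a gene) was below the median of all genes tested. The class median was 0.686, against 3.06 RPKM over all genes tested. The 95% interval of the log2 fold change reached 0.688 to either side in the median G2/M gene, against 0.406 in S phase and 0.334 in the G1 and Rb pathway. This width holds counting error and the spread between libraries together.

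Cdk1 (chromosome 10, 69335146 to 69352938, minus strand, GRCm38) encodes the kinase that drives entry into mitosis. It had 6.08, 5.04 and 7.53 CPM in p16+ and 1.38, 3.56 and 1.61 CPM in p16-. The lowest p16+ library stood above the highest p16- library, and p16- replicate 2 stood well above the other p16- libraries. This amounted to a 2.84-fold rise (log2 1.51, SE 0.32, adjusted p = 0.00371). Top2a (chromosome 11, 98992943 to 99024189, minus strand), the topoisomerase that untangles replicated chromosomes, had 10.5, 11.0 and 8.61 CPM in p16+ and 2.04, 4.94 and 4.43 CPM in p16-. Here p16- replicate 1 was the lowest and the groups again stood apart, and the rise was 2.64-fold (log2 1.40, SE 0.26, adjusted p = 0.00119). Both calls held in each of the 15 alternative settings.

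The promoters of these genes show the 2 elements named above, and they are printed because Cdk1 and Top2a share them with most G2/M genes. The letters are the 250 bases before the RefSeq start (GRCm38.p6), at chr10:69352913-69353162 on the minus strand for Cdk1 and at chr11:99024190-99024439 on the minus strand for Top2a. Capitals mark CCAAT, which reads ATTGG on the other strand, the CHR form TTTGAA, which reads TTCAAA there, the CHR form TTCGAA, and 4 words bound by E2F factors, each searched on both strands. These E2F words were TTTGGCGC, its variant TTTCCCGC, a further variant TTTGCCGC, and the form TTTCGCGC.
Cdk1: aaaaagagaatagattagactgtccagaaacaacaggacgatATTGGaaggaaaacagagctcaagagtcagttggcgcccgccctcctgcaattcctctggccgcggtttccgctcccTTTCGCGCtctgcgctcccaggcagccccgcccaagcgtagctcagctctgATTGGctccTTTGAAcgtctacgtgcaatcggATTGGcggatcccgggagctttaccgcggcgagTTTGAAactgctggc
Top2a: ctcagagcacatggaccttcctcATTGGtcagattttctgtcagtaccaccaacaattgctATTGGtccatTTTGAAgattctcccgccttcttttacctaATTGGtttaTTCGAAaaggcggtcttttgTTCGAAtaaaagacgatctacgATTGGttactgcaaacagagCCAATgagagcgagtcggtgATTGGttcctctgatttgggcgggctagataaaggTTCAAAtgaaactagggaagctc
The Cdk1 stretch holds 3 CCAAT boxes, 2 TTTGAA words, the nearer of them starting at -15 from the RefSeq start, and 1 E2F word. That of Top2a holds 6 CCAAT boxes, 2 TTTGAA and 2 TTCGAA words.

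Promoters of 250 bases before to 50 after the start were found for 39 of the 49 genes, 43 in all, in the RefSeq table of 32851 promoters. CCAAT occurred on either strand in 19 of 21 G2/M promoters, or 90.5%, against 37.4% of all promoters. TTTGAA was in 16 of the 21, or 76.2%, against 17.9%. All 16 also held CCAAT, a pair found in 6.95% of all promoters. Of the S phase promoters, 9 of 13 held CCAAT, 1 of 13 held TTTGAA, and 4 of 13 (30.8%) held an E2F word, against 2.26% of all promoters. The 4 belong to Mcm3, Mcm5, Mcm6 and Mcm7, none of which passed the test. In the G1 and Rb class 5 of 9 promoters held CCAAT and 3 of 9 an E2F word, those of E2f7, Rbl1 and 1 of the 2 of E2f2. The promoters of Cdk4 and Cdk6 held none of the words. Words of different kinds shared bases in 1 member promoter, of Mcm7. Of 657 tested genes outside the 49 that hold both CCAAT and TTTGAA in 1 promoter, 7.91% were called higher and 8.22% lower, against 8.98% and 8.47% of the 11407 tested genes with a promoter in the table.

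The other G2/M genes did not pass. Mki67 (chromosome 7, 135689784 to 135716361), the usual marker of cycling cells, had 8.06, 10.3 and 11.7 CPM in p16+ and 4.65, 9.99 and 8.17 CPM in p16-. The groups overlapped, with a log2 fold change of 0.39 (95% interval -0.10 to 0.89, adjusted p = 0.299). In 3 further genes the groups did not overlap. Ube2c, the ubiquitin-conjugating enzyme of the anaphase-promoting complex, had 2.15 to 2.51 CPM in p16+ and 0.941 to 1.54 CPM in p16- (log2 fold change 0.99, adjusted p = 0.0731), with 22.8% of its exonic length overlapped by Tnnc2 on the other strand, and counts without strand do not separate the pair. Bub1b, of the spindle checkpoint, had 4.71 to 5.31 and 1.72 to 3.63 CPM (0.74, adjusted p = 0.0902). Cyclin B2, encoded by Ccnb2, had 5.20 to 6.75 and 3.02 to 4.41 CPM (0.61, adjusted p = 0.0783). DESeq2 called Ube2c higher (adjusted p = 0.0401), and a fit with the replicate block called Bub1b higher (adjusted p = 0.0488).

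Cyclins and kinases of mitosis other than Cdk1 had wide intervals. Ccnb1, the cyclin B1 partner of Cdk1, had 1.65, 1.96 and 0.818 CPM in p16+ and 0.467, 1.49 and 0.403 CPM in p16-, with an interval of the log2 fold change from -0.30 to 2.11. Cyclin A2 (Ccna2) had 3.41 to 5.47 and 1.72 to 4.44 CPM (0.64, adjusted p = 0.211), and was called higher when p16- replicate 2 was left out (adjusted p = 0.0302). Plk1, a mitotic kinase, had 1.29, 1.31 and 2.01 CPM in p16+ and 2.11, 1.21 and 1.21 CPM in p16- (0.02, interval -0.84 to 0.88). The Aurora kinase genes Aurka and Aurkb had fitted values of 0.72 and 0.62 (adjusted p = 0.323 and 0.514), at means of 0.826 to 1.77 CPM. Of the kinetochore genes, Cenpa, Cenpe, Cenpf and Bub1 lay between 0.14 and 0.67, and of the spindle and midzone genes Kif11, Kif20a, Kif23, Tpx2, Nusap1, Hmmr and Prc1 between 0.09 and 0.65. Cdc20, which activates the anaphase-promoting complex, and Birc5, which encodes survivin, had 0.43 and 0.58 (adjusted p = 0.353 and 0.26). Of the exonic length of Kif20a 29.3% is overlapped by Cdc23, of Ccna2 12.5% by Exosc9 and of Prc1 11.1% by Rccd1, each on the opposite strand.

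**Figure D2:**
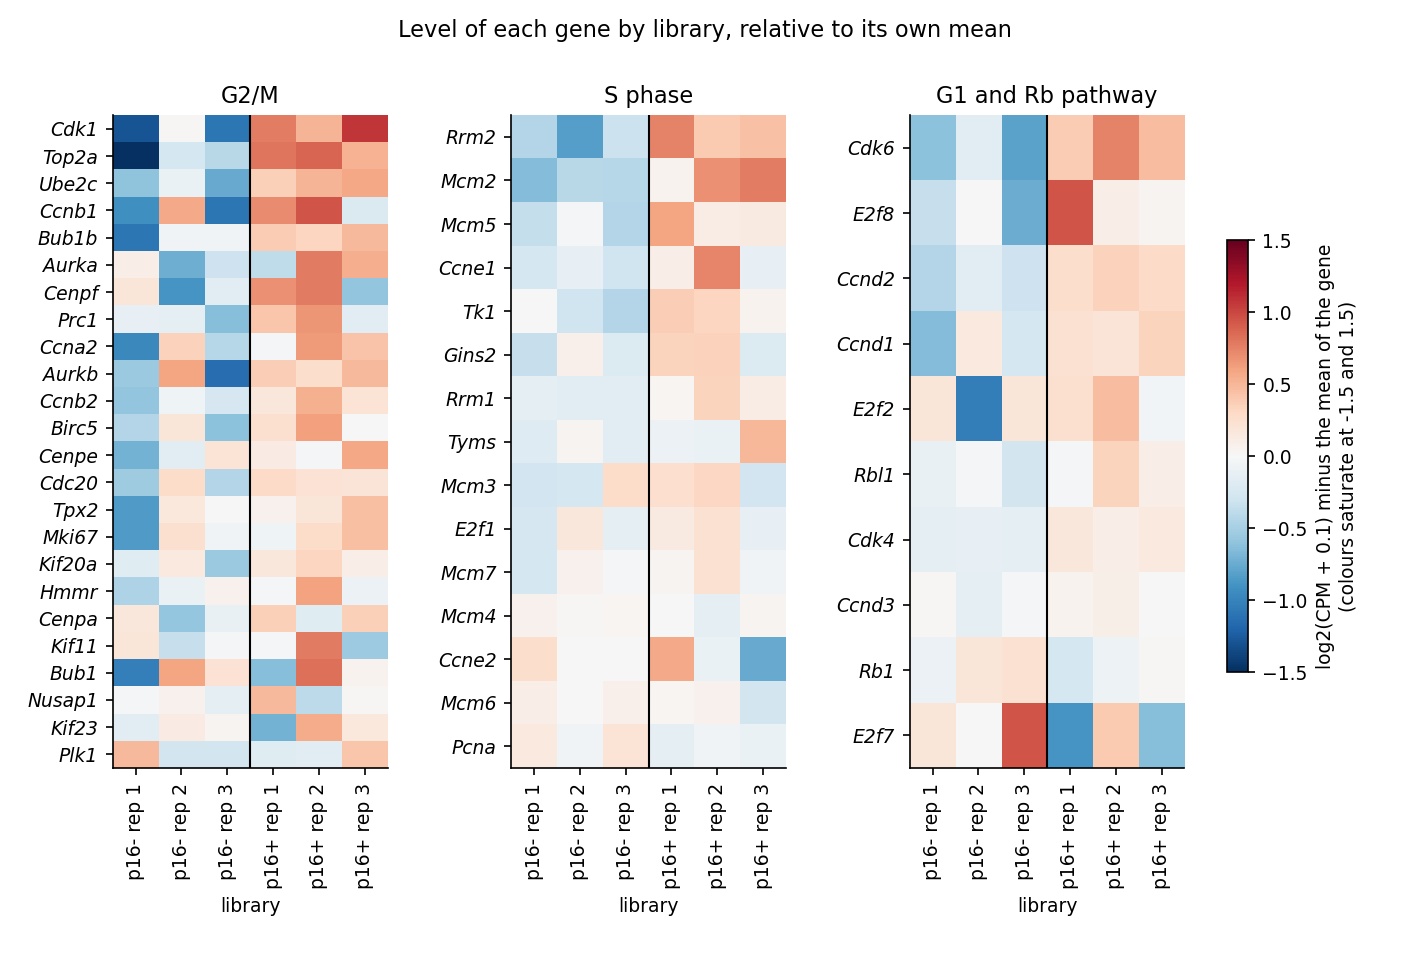
Log2(CPM + 0.1) of each gene minus its mean over the 6 libraries, with libraries in columns and genes in rows ordered by fold change; colours saturate at -1.5 and 1.5. In the G2/M panel the column of p16- replicate 1 is the lowest of the 6 for 11 of 24 genes and that of p16+ replicate 2 the highest for 13.

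The G2/M genes varied between libraries of 1 group as well. Their summed level was 85.1, 97.8 and 89.7 CPM in p16+ and 49.7, 71.1 and 58.9 CPM in p16-. The sums of the groups did not overlap, and their means stood at a ratio of 1.52. Within p16-, replicate 2 was the highest of its group in 16 of the 24 genes and replicate 1 the lowest in 12. Within p16+, replicate 2 was the highest in 13 of the 24. Without p16- replicate 1 the median log2 fold change was 0.409 and 23 of 24 values were above 0, without p16+ replicate 2 it was 0.454 with 21 of 24, and over the other single libraries left out it was 0.501 to 0.638.

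Among the S phase genes 3 rose, 0 fell and 12 did not pass, a called share of 20.0% against 16.7% of all genes in either direction and 8.69% higher. The median log2 fold change was 0.24, and 11 of 15 values were above 0. Mcm2 (chromosome 6, 88883474 to 88898780, minus strand), a subunit of the helicase that opens DNA for replication, had 7.51, 11.7 and 12.4 CPM in p16+ and 4.57, 5.40 and 5.38 CPM in p16-. All p16+ libraries stood above all p16- libraries, and the rise was 2.06-fold (log2 1.05, SE 0.20, adjusted p = 0.00159). Rrm2 (chromosome 12, 24708241 to 24714146, plus strand), the regulated small subunit of the enzyme that makes deoxyribonucleotides, had 7.04, 5.50 and 5.66 CPM in p16+ and 3.05, 2.30 and 3.31 CPM in p16-. The groups stood apart by a wide gap, and the rise was 2.11-fold (log2 1.07, SE 0.23, adjusted p = 0.0039). Both calls held in all 15 alternative settings.

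The 250 bases before the RefSeq starts of these genes, marked in the same way, are shown for comparison with Cdk1 and Top2a, at chr6:88898781-88899030 on the minus strand for Mcm2 and chr12:24708004-24708253 on the plus strand for Rrm2 (GRCm38.p6).
Mcm2: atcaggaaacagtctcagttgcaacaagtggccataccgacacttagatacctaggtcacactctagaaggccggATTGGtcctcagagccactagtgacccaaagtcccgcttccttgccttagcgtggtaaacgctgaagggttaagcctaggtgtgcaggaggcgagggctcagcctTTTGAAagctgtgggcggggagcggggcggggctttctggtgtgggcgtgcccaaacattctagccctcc
Rrm2: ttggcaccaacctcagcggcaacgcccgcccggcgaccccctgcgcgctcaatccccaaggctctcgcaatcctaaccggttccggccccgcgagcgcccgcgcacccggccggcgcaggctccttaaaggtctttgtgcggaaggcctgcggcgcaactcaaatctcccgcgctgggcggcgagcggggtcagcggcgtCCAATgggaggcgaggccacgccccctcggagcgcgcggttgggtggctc
Mcm2 has 1 CCAAT box and 1 TTTGAA word, the latter starting at -70. Promoters were found for 12 of the 15 S phase genes, and among these Mcm2 is the single one with TTTGAA. A promoter of Mcm7 held the other CHR form, TTCGAA. Rrm2 has 1 CCAAT box at -50 and no CHR or E2F word in these letters.

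The third called S phase gene, Rrm1 (chromosome 7, 102441695 to 102469771), encodes the large subunit that pairs with Rrm2. It had 34.8, 43.1 and 37.1 CPM in p16+ and 31.3, 30.4 and 30.5 CPM in p16-. The rise was small, 1.25-fold (log2 0.32, SE 0.10, adjusted p = 0.0361), and the call was lost without p16+ replicate 2 (adjusted p = 0.208), when p16+ replicate 3 (0.0718), p16- replicate 2 (0.0772) or p16- replicate 3 (0.104) was left out, and under scaling by library size alone (0.102). All annotated exons together measure 11012 bp in Rrm1 and 2771 bp in Rrm2, and the level of a ratio per kilobase depends on these lengths. Per kilobase, Rrm2 stood at 0.804, 0.507 and 0.607 of Rrm1 in p16+ and at 0.387, 0.300 and 0.431 in p16-. This ratio was higher in each p16+ library than in any p16- library.

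Mcm2 is 1 of 6 subunits that form the helicase together. The others, Mcm3 to Mcm7, had fitted log2 fold changes from -0.11 to 0.57 and did not pass. Mcm4, the most abundant by CPM, had 25.8, 23.4 and 26.7 CPM in p16+ and 27.2, 26.3 and 26.6 CPM in p16- (log2 fold change -0.08, interval -0.29 to 0.13). Mcm5 had 8.80, 6.26 and 6.39 CPM in p16+ and 4.50, 5.70 and 4.25 CPM in p16-, without overlap (0.57, adjusted p = 0.0766). The RPKM of Mcm2 was 0.251, 0.402 and 0.474 of the mean of the other subunits in p16+ and 0.170, 0.196 and 0.187 in p16-. This ratio and that of Rrm2 to Rrm1 were formed after the values were seen, and neither was tested.

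Pcna (chromosome 2, 132249162 to 132253314), the sliding clamp of DNA polymerases and per kilobase the most abundant S phase member, had 46.8, 49.8 and 48.1 CPM in p16+ and 57.0, 49.5 and 59.4 CPM in p16-. The groups overlapped through p16- replicate 2, with a log2 fold change of -0.20 (interval -0.38 to -0.01, adjusted p = 0.145). With library sizes alone, a scaling that moved the median of all genes from -0.01 to -0.08, Pcna was called lower (log2 fold change -0.27, adjusted p = 0.0389). The thymidine kinase gene Tk1 had 7.84, 7.60 and 6.28 CPM in p16+ and 6.07, 4.89 and 4.46 CPM in p16- (0.49, adjusted p = 0.102), while Tyms, encoding thymidylate synthase, had 7.41 to 11.2 and 6.91 to 8.15 CPM (0.24, adjusted p = 0.469). The E-type cyclin genes, whose products activate CDK2 at the start of S phase, lay at 0.53 for Ccne1 and -0.10 for Ccne2 (adjusted p = 0.32 and 0.906), at 1.05 to 3.73 CPM over the 6 libraries. Ints8 overlaps 17.4% of the exonic length of Ccne2. E2f1, an activating E2F factor, had 16.1, 17.3 and 13.5 CPM in p16+ and 12.3, 16.6 and 13.2 CPM in p16- (0.16, interval -0.15 to 0.47). Gins2, another helicase component, gave 0.33 (adjusted p = 0.414), but 67.3% of its exonic length is overlapped by Gse1. Summed, the 15 S phase genes had 225, 239 and 217 CPM in p16+ and 207, 206 and 214 CPM in p16-. The ratio of the means was 1.09, against 1.52 for G2/M, and a difference between the classes was not tested.

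**Figure D3:**
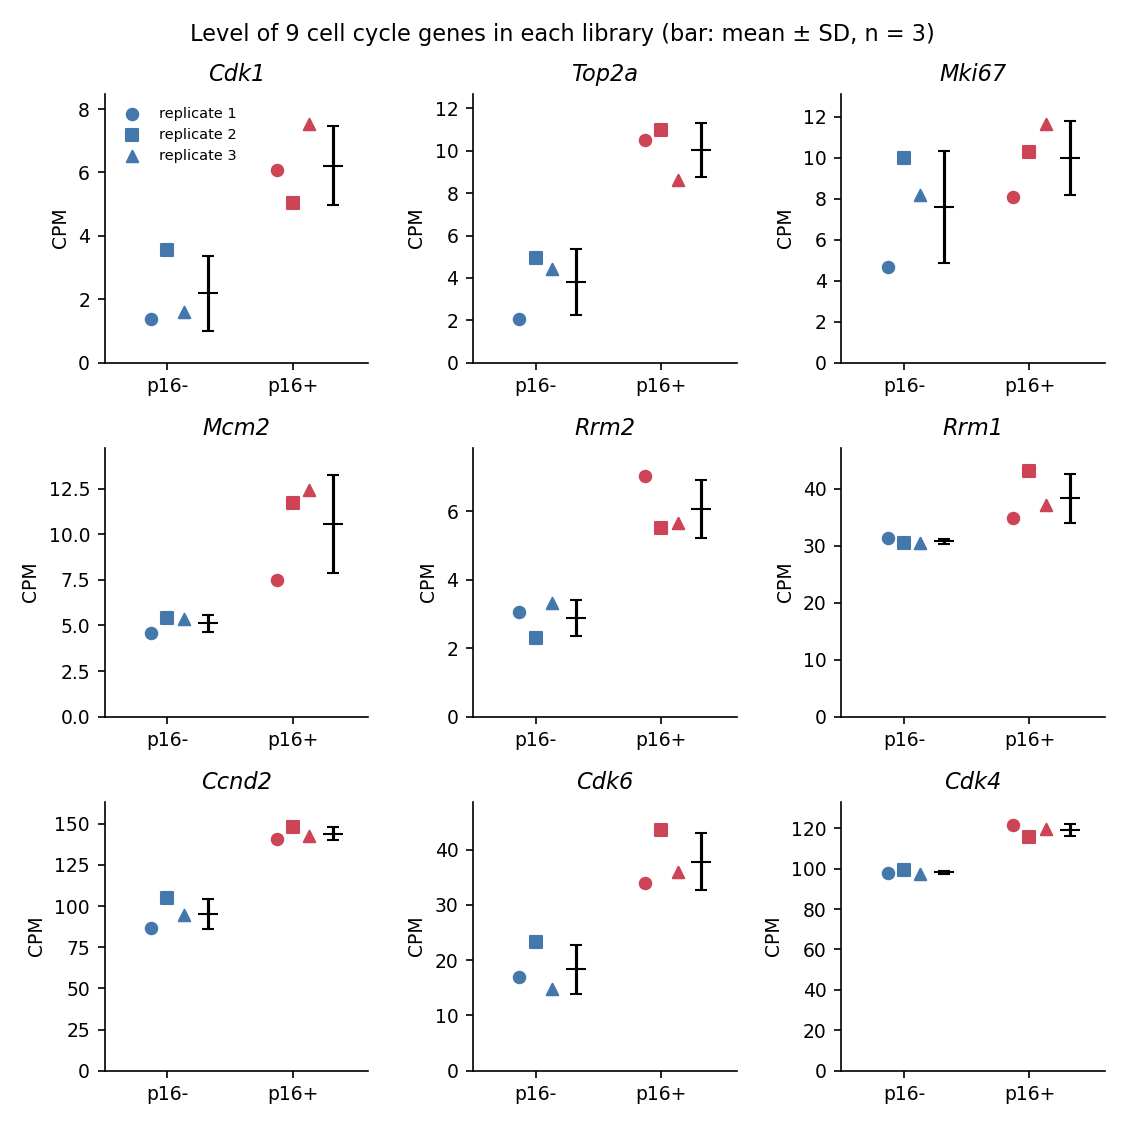
CPM (vertical axes, from 0) of the 8 called genes and Mki67 in each library; symbols mark the replicate number, colours the group, and bars the mean ± SD of 3 libraries. Replicates of p16+ and p16- are separate in all panels but that of Mki67. There p16- replicates 2 and 3, at 9.99 and 8.17 CPM, are above p16+ replicate 1, at 8.06 CPM.

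In the G1 and Rb pathway 3 of 10 genes rose, 0 fell and 7 did not pass, a called share of 30.0% against 16.7% of all genes in either direction and 8.69% higher. The median log2 fold change was 0.33. The 3 were the kinase pair that p16 inhibits and 1 of the cyclins that activate it. Cdk6 (chromosome 5, 3341485 to 3531008) had 34.0, 43.6 and 35.9 CPM in p16+ and 16.9, 23.3 and 14.8 CPM in p16-. Its groups stood apart, at a rise of 2.06-fold (log2 1.05, SE 0.15, adjusted p = 0.00011). Cdk4 (chromosome 10, 127063534 to 127067920) had 122, 116 and 119.7 CPM in p16+ and 97.8, 99.1 and 97.5 CPM in p16-. Its change was the smaller, 0.28 (SE 0.07, adjusted p = 0.0117), and 19.7% of its exonic length is overlapped by Tspan31 on the opposite strand. The call of Cdk4 was lost without p16+ replicate 1 (adjusted p = 0.0517), p16+ replicate 3 (0.0518) or p16- replicate 3 (0.0562), and under scaling by library size alone (0.0549). Per kilobase Cdk4 remained far above Cdk6, at means of 36.7 and 2.71 RPKM in p16+ and 30.2 and 1.31 RPKM in p16-.

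Of the D-type cyclins, Ccnd2 (chromosome 6, 127125162 to 127152193) was the highest by CPM, with 141, 148 and 143 CPM in p16+ and 86.5, 105 and 94.6 CPM in p16-. Libraries within a group were close together, and the log2 fold change was 0.60 (SE 0.08, adjusted p = 8.34e-05), or 1.51-fold. The calls of Ccnd2 and Cdk6 held in all 15 alternative settings. Ccnd1 had 17.9 to 19.7 CPM in p16+ and 9.93 to 17.3 CPM in p16-, where replicate 2 was the highest. The groups stood just apart, and the gene did not pass (0.48, adjusted p = 0.0623), but was called higher without p16- replicate 2 (adjusted p = 0.00429), with the replicate block (0.0195), by DESeq2 (0.0433), by limma-voom (0.0402), without the filter (0.00728) and with the stricter filter (0.0486). Of its exonic length 23.4% is overlapped by another gene on the opposite strand. Ccnd3 had 47.3, 48.5 and 45.8 CPM in p16+ and 46.0, 40.9 and 44.6 CPM in p16-, with overlap (0.11, adjusted p = 0.456).

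Neither pocket protein of the list passed. Rb1, which encodes Rb, had 14.2, 16.2 and 17.3 CPM in p16+ and 16.1, 19.4 and 20.0 CPM in p16- (-0.22, interval -0.49 to 0.06, adjusted p = 0.302), with 14.9% of its exonic length overlapped. Its relative p107, encoded by Rbl1, had 7.87, 10.2 and 8.61 CPM in p16+ and 7.40, 7.89 and 6.61 CPM in p16- (0.28, interval -0.08 to 0.64, adjusted p = 0.304). E2f2, an activating factor, and the repressive factors E2f7 and E2f8 were at means of 0.499 to 1.54 CPM. Their fitted values were 0.39, -0.76 and 0.86 (adjusted p = 0.635, 0.371 and 0.384), with counts down to 13 in a library.

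The genes of CDK inhibitors were counted too, among them those of p16, p15 and p18, which act on CDK4 and CDK6. Of 7 genes, 4 rose and 0 fell, or 3 of 6 without Cdkn2a, where 8.69% of all genes were called higher. Besides Cdkn2a, by whose reporter the cells were sorted (log2 fold change 1.88, adjusted p = 2e-05), these were Cdkn2b (1.21, adjusted p = 0.00016) and Cdkn2c (0.58, adjusted p = 0.00602), encoding the CDK4 and CDK6 inhibitors p15 and p18, and Cdkn1a (0.46, adjusted p = 0.000277), encoding p21. These 4 inhibitor genes and Ccnd2, Cdk4 and Cdk6 were called higher in the same libraries.

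Wider lists of the same processes were counted in the same way, where 16.7% of all genes tested were called. Of 46 further DNA replication genes 1 rose and 1 fell (4.35% called), with a median log2 fold change of 0.06. Uhrf1, which maintains DNA methylation at replication, had 5.78, 7.41 and 5.43 CPM in p16+ and 3.61, 4.24 and 3.71 CPM in p16- (0.69, adjusted p = 0.0355). Slbp, whose protein binds histone mRNA, had 29.7, 32.8 and 33.8 CPM in p16+ and 48.6, 38.0 and 41.5 CPM in p16- (-0.41, adjusted p = 0.011). The call of Uhrf1 was lost without p16+ replicate 1 (adjusted p = 0.0587), p16+ replicate 2 (0.179), p16- replicate 1 (0.0863) or p16- replicate 3 (0.107), or under scaling by library size alone (0.057), and that of Slbp without p16+ replicate 1 (0.0548).

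Of 65 further genes of mitosis and cytokinesis 64 were tested, of which 6 rose and 2 fell (12.5% called), with a median of 0.37 and 45 of 64 values above 0. Ska1 did not pass the filter, with 0.0246 to 0.413 CPM. Cit, the citron kinase gene of cytokinesis, had 15.5, 14.2 and 15.2 CPM in p16+ and 6.32, 7.79 and 7.63 CPM in p16- (1.05, adjusted p = 8.8e-05). Smc4, a condensin subunit, rose by 0.55 (adjusted p = 0.00522) and Cdca3, a cell division cycle gene, by 1.27 (adjusted p = 0.00845). Pttg1, encoding securin, fell by 0.47 on the log2 scale (adjusted p = 0.0143), from 28.2 ± 4.31 to 20.3 ± 1.82 CPM (SD, n = 3). Leaving out p16+ replicate 3 left 3 genes called higher. Leaving out p16- replicate 1 left 0 called lower, and leaving out p16- replicates 2 or 3 or p16+ replicates 2 or 3 left 1. Cdca3 lost its call without p16+ replicate 3 (adjusted p = 0.0508), and Pttg1 without p16+ replicate 2 (0.0784) or p16- replicate 1 (0.0676). Of 26 further genes of the Rb, E2F and DREAM pathway 0 rose and 1 fell (3.85% called), with a median of 0.01. In 8 of the 26 the unadjusted p of this test was under 0.05 in either direction, against 4473 of all 15903 genes tested. The gene that fell was Wee1, whose kinase restrains Cdk1, from 21.0, 28.7 and 22.9 CPM in p16- to 15.5, 18.6 and 15.9 CPM in p16+ (-0.54, adjusted p = 0.00957). It did not pass without p16+ replicate 3 (adjusted p = 0.0501) or p16- replicate 2 (0.0594). DESeq2 and the fit without p16+ replicate 2 each called 1 gene of this list higher.

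Genes associated with the resting state went both ways: of 14, 3 rose and 5 fell, with a median of -0.03. The called share was 57.1%, against 16.7% of all genes, 8.69% higher and 8.04% lower. Cdkn1c, Rbl2 and Pdgfra of this list also stand in the lists of CDK inhibitors, Rb pathway genes and fibroblast genes. Log2 fold changes of the list reached 0.37 upward and -0.71 downward. Those with the smallest p all fell in p16+: Cd34, a surface marker of quiescent progenitors, by 0.70 on the log2 scale (adjusted p = 2.14e-05), the transcription factor genes Foxo1 by 0.71 (adjusted p = 0.000107) and Klf4 by 0.55 (adjusted p = 0.000491), and Zfp36l1, an mRNA decay factor gene, by 0.34 (adjusted p = 0.00438). Leaving out p16+ replicate 3 left 1 called higher.

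**Figure D4:**
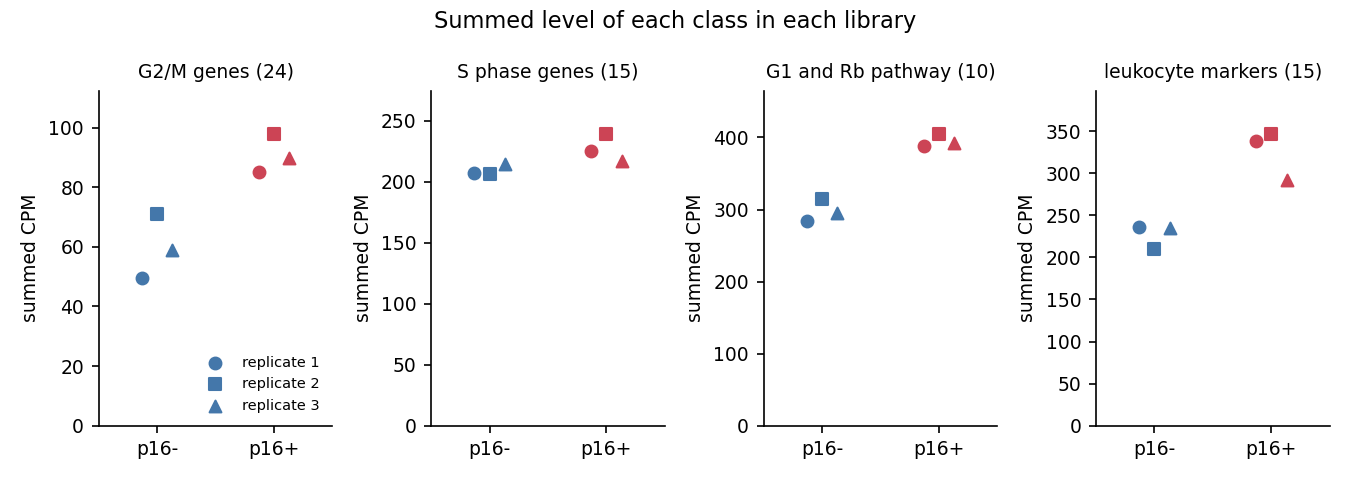
Summed CPM (vertical axes, from 0) of the 3 gene classes and of 15 leukocyte markers in each library; symbols mark the replicate number and colours the group. All 4 sums are higher in each p16+ library than in each p16- library, with the smallest gap in S phase, 217 against 214 CPM.

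Markers of some other cell types were higher in p16+, as the called cell cycle genes were, and those of others were lower or did not pass. Over all genes tested 8.69% were called higher and 8.04% lower. Among the 9 fibroblast genes, which mark the labelled cell type, 6 rose and 0 fell, and the ratio of their summed means was 1.57. Of 15 markers of macrophages and other leukocytes, which the sort against CD45 should remove, 6 of 14 tested rose and 0 fell, and their summed level was 292 to 346 CPM in p16+ and 210 to 236 CPM in p16-. The CD45 gene Ptprc itself had means of 7.77 and 4.89 CPM (adjusted p = 0.0602). Replicate 2 of p16+ had both the highest G2/M sum and the highest leukocyte sum of the 6 libraries, while within p16- replicate 2 had the highest G2/M sum and the lowest leukocyte sum. Among 4 genes of MHC class II, 3 were called higher and 0 lower, with sums of 67.7 to 83.4 CPM in p16+ and 44.8 to 55.2 CPM in p16-. Of 6 markers of satellite cells and myoblasts, which can divide after injury, Pax7, Cdh15 and Itga7 rose and Myog fell, with sums of 71.2 to 87.8 and 56.8 to 63.0 CPM. Of 8 endothelial markers Pecam1, Emcn and Vwf rose and Tek fell. Their median log2 fold change was 1.05, and 6 of the 8 values were above 0. Pecam1 is the gene of CD31, against which the cells were sorted. Tek set most of the endothelial sums of 69.2 to 96.5 CPM in p16+ and 174 to 207 CPM in p16-. Of 7 markers of pericytes and smooth muscle 4 rose and 0 fell, with sums of 1697 to 1721 and 1152 to 1456 CPM. Lymphocyte markers were at or near 0: of 8, 6 did not pass the filter, and Cd8a had 0 counts in all p16+ libraries. Their sums were 1.18 to 2.04 CPM in p16+ and 0.270 to 1.21 CPM in p16-. The 2 tested had log2 fold changes of 0.46 and 2.74. Of these, 0 were called by edgeR and 1 had an unadjusted p under 0.05. Neutrophil markers summed to 4.63 to 6.66 CPM over both groups, with 0 of 3 tested called by edgeR, and muscle fibre markers to 12.8 to 23.8 CPM, with 0 of 4 called (0 of each with an unadjusted p under 0.05). Of 4 glial markers 3 fell, with sums of 24.4 to 33.2 and 45.7 to 82.4 CPM, and of 4 erythroid markers 1 fell. The part of these cells in the rise of the 8 genes was not tested.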

How the data were processed

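The labels describe RNA of sorted cells, libraries made with the TruSeq RNA kit V2, which does not mark strand, and paired-end sequencing of 50 bp per end. The deposited values are whole-number counts per gene, which the authors obtained by running featureCounts 1.6.0 over GENCODE vM21 exons with read pairs taken as fragments, per the file headers. Per the submitters' processing notes the genome was GRCm38.p6 and the aligner STAR 2.7.3a.

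Computed here: filterByExpr at its defaults (15903 of 55536 genes), TMM factors, and the quasi-likelihood test of edgeR 4.0.16 (robust, group alone, 6 libraries) in R 4.3.3. Adjusted p-values are Benjamini-Hochberg over all genes tested, with a threshold of 0.05. Standard errors and 95% intervals come from the same test. The members and gene lists were chosen with earlier results of these data known. Named genes were all called members, 9 fixed members (Mki67, Pcna, Mcm2, E2f1, Ccnd1, Cdk4, Cdk6, Rb1 and Rbl1) and up to 4 called genes with the smallest p per further list. Other members are given by value or range, and markers beyond this rule were named after their values were seen. Alternatives were RLE and upper-quartile factors, library sizes alone, no filter, CPM of at least 1 in 3 libraries, DESeq2 1.42.0, limma-voom (limma 3.58.1), no robust estimation, the replicate block, and each library left out. On counts simulated for this comparison (15763 genes tested) the test recovered 46%, 72%, 76% and 90% of the genes altered by 1.5, 2, 3 and 4 times. Of its 151 calls 9 were false. The altered genes were 50 per fold, drawn at random from all genes tested, where 2660 genes were called in the data. Recovery of the 49 genes at their own levels was not simulated.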

Additional observations from a re-analysis of the deposited data

How the results depend on the processing

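Of the 29 genes followed through 15 alternatives, none changed direction past the threshold: 408 of 435 refits kept the call, 20 lost one (7 genes) and 7 gained one (2 genes, Ccnd1 and Pcna). With library sizes alone 1 S phase member was called lower (Pcna), further DNA replication genes had 0 higher and 4 lower, further Rb, E2F and DREAM genes 4 lower, and quiescence genes 1 higher; of all genes, 1059 were then higher and 1882 lower in place of 1382 and 1278, or 36.0% higher in place of 52.0%. Without the filter, with DESeq2 and with the replicate block, 2 further DNA replication genes were higher, and with the block 2 were lower. RLE and upper-quartile factors each left 1 further mitosis gene lower, and DESeq2 called 1 further Rb, E2F and DREAM gene higher. With 1 library left out, the further lists ranged from 0 to 2 higher for DNA replication, from 3 to 7 higher and 0 to 2 lower for mitosis, from 0 to 1 higher and 0 to 1 lower for Rb, E2F and DREAM, and from 1 to 3 higher for quiescence. The cause of these shifts was not tested.

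The replicate block called 3 S phase, 3 G2/M and 4 G1 and Rb members higher in place of 3, 2 and 3. Over all genes tested the block called 1605 higher and 1509 lower, in place of 1382 and 1278. The labels do not say that the numbers pair samples, so the block was kept as an alternative. Deviations from the group means correlated by 0.03, 0.08 and -0.00 between libraries of the same number, and by -0.07 to 0.04 between the others. With 3 libraries per group these values cannot decide whether samples were paired. Counts per library were 14 to 404 in G2/M, and intervals there were the widest of the 3 classes in the median gene; counting error was not separated from spread between libraries.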
